A study of Homo sapiens with 24 samples.

Results

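Antisense long noncoding RNA genes named after a protein-coding neighbor, such as DICER1-AS1 after DICER1, were examined in U2OS cells by mammalian native elongating transcript sequencing (mNET-seq), which reads the RNA held by immunoprecipitated RNA polymerase II. Members were all genes of the gene-body count table whose identifier belonged in GENCODE release 44 to a long noncoding RNA (lncRNA) with a symbol ending in -AS and any number, which gave 1837 of 54377 genes. The edgeR filter on low counts left 916 of them, among 21246 genes tested, while 815 had counts but did not pass it and 106 had no counts in any library. Of the 1837 genes, 1800 had the protein-coding gene of their name in the table. Among the 916 tested, 794 had a partner that was tested too.

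U2OS is a human osteosarcoma cell line, used here as wild-type cells with no added transgene named in the labels. Cells were left nonirradiated or received 10 Gy of ionizing radiation, and were collected 10 min later by the sample labels or 30 min later by the written protocol. Polymerase was pulled down with an antibody to tyrosine 1, serine 2 or serine 5 phosphorylation of its carboxy-terminal domain (Y1P, S2P and S5P), which gave 6 groups of 2 libraries. The labels of the 24 deposited runs give a batch, 1 or 2, and a replicate, 1 or 2. What a batch stands for is not stated in the labels. Runs of the 2 batches with the same group and replicate number were summed, which gave these 12 libraries. The study speaks of biological replicates and gives more of them than the 2 libraries a group used here. Whether same-group libraries came from separate cultures is not stated, so that the p-values cover no more than the spread of these libraries.

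An antisense lncRNA gene lies on the strand opposite to a protein-coding gene. Many such genes start close to the partner's start and are transcribed away from it, as mammalian promoters commonly initiate in both directions, and others lie inside the partner or meet its 3′ end. Their transcripts are often short-lived, so that nascent RNA can show transcription that steady-state RNA does not. The 3 phosphorylations mark polymerase at different stages, with S5P known for promoter-proximal and S2P for elongating polymerase, and Y1P reported on polymerase near promoters and on antisense transcripts in mammalian cells.

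The counts came from the gene body, from 200 bases downstream of the annotated start to the annotated end, so that promoter-proximal polymerase was left out. Reads were assigned by strand, which keeps an -AS gene apart from its partner on the opposite strand. Strand does not separate genes of the same strand that overlap. The methods state that reads overlapping gene bodies were excluded, so that such genes can have lost counts. Another gene of the same strand overlapped more than 50% of the length of 19 of the 916 tested -AS genes. A group of 457 tested genes was head-to-head with the partner, meaning opposite strands with starts within 1000 bases or with overlapping 5′ ends. A further 180 lay inside the partner, 161 were tail-to-tail, 81 contained the partner, 12 lay apart, 4 lay on the same strand and 21 had no partner in the table. Positions were read from the outermost GENCODE bounds of each gene, so that further starts of a partner inside its bounds were not considered. A gene counted as inside its partner can therefore lie at such a start. Tested -AS genes had a median length of 20892 bases and ranged from 482 to 1064402 bases.

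The promoters of 5 genes that carry the results below are shown. Head-to-head -AS genes start within 1000 bases of the partner's start or overlap its 5′ end. Each is the RefSeq window of 250 bases before to 50 bases after the start in GRCh38.p14, written 5′ to 3′ on the strand of the -AS gene. Capitals mark matches on either strand to GGGCGG, the core of the GC box bound by Sp1, or to CCAAT, the box bound by NF-Y. ARHGEF17-AS1 (chr11:73309312-73309611, minus strand) and DICER1-AS1 (chr14:95157438-95157737, plus strand) are head-to-head genes that rose after irradiation. COA6-AS1 (chr1:234373354-234373653, minus strand) also rose, and its window holds the start of COA6. KMT2E-AS1 (chr7:105014092-105014391, minus strand) starts inside KMT2E, and NXT1-AS1 (chr20:23351418-23351717, minus strand) was lower with S2P than with Y1P.
ARHGEF17-AS1: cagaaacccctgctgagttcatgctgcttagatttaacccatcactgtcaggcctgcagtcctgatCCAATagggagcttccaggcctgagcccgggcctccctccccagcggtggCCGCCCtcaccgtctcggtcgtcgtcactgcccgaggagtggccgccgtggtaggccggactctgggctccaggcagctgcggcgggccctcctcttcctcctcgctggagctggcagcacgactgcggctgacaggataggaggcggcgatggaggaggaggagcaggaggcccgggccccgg
DICER1-AS1: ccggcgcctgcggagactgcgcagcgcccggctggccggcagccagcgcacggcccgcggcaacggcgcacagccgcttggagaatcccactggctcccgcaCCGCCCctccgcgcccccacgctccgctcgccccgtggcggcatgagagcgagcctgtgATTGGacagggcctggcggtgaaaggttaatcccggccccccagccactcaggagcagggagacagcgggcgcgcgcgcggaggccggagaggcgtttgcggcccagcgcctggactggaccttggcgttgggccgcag
COA6-AS1: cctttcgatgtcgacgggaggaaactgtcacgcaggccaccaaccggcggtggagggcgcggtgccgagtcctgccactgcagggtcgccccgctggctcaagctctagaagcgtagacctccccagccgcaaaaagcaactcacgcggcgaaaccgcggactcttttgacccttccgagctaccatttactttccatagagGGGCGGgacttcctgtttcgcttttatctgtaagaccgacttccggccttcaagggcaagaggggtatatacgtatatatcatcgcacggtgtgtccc
KMT2E-AS1: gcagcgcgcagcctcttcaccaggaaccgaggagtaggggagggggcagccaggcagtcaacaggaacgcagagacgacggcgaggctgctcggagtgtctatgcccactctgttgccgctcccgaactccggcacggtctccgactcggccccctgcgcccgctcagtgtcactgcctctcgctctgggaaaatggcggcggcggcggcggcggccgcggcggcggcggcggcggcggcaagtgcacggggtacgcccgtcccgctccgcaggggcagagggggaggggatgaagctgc
NXT1-AS1: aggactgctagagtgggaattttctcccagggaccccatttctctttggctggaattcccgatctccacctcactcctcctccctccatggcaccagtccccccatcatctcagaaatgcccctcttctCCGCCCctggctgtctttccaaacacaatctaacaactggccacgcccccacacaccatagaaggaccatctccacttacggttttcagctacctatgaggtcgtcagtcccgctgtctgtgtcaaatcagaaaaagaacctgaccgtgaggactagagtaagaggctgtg

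ARHGEF17-AS1 and DICER1-AS1 each held 1 GGGCGG and 1 CCAAT match, COA6-AS1 and NXT1-AS1 each held 1 GGGCGG match, and KMT2E-AS1 held neither. The RefSeq and GENCODE starts of the 5 genes differed by 0 bases for ARHGEF17-AS1, 43 for DICER1-AS1, 261 for COA6-AS1, 180 for KMT2E-AS1 and 19 for NXT1-AS1. RefSeq gave promoter windows for 1278 of the 1837 -AS genes, 1456 windows in all, and for 681 of the 916 tested genes, with 808 windows. GGGCGG was found in 58.4% of the 450 windows of tested head-to-head genes, 52.8% of those of all tested -AS genes and 45.0% of all promoters in the table. CCAAT was found in 30%, 30.4% and 34.6%, TATAAA (the TATA box) in 6.67%, 7.8% and 11.5%, and TGANTCA (the AP-1 site) in 6.22%, 6.44% and 7.71% of the same 3 sets, searched on both strands. Windows of tested head-to-head genes had a median GC content of 64.0%, against 58.7% for all promoters. Over all 1456 -AS windows, tested or not, GGGCGG was found in 40.2% and the median GC content was 57.3%. Both values lay below those of all promoters. In 67 of the 450 windows the partner's annotated start lay inside the same 300 bases.

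Library totals ran from 16220773 to 33144659 counts with a median of 20526695. Runs of the same replicate number in different batches differed by little more than sampling noise (chi-square per degree of freedom 1.06 to 1.10). Different replicate numbers within a batch differed at 8.95 to 61.2. Of the mesenchymal and osteoblast markers, VIM stood at 69.8 to 106 CPM (counts scaled to library size), RUNX2 at 462 to 695 and FN1 at 160 to 362, while COL1A2 (0 to 0.684) and TWIST1 (0.119 to 0.657) were near 0. Epithelial KRT5 (0 to 0.164) and blood markers HBB (0 to 0.0553) and CD3E (0 to 0.0952) were near 0, with EPCAM at 4.09 to 8.44 and PTPRC at 2.7 to 4.43 CPM. CPM were taken over the library total scaled by the trimmed mean of M-values (TMM).

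Transcription of -AS genes took a small share of the counts. In nonirradiated cells the share was 0.924% and 0.727% with Y1P, 0.809% and 0.743% with S2P, and those for S5P were 0.916% and 0.801%, in replicates 1 and 2. After irradiation it was 0.968% and 0.985% with Y1P, 0.855% and 0.807% with S2P, while S5P gave 0.917% and 0.796%. Both irradiated Y1P libraries stood above both nonirradiated ones, whereas the S5P ranges nearly coincided. In bulk cells, fewer cells transcribing a gene and less nascent RNA per cell cannot be told apart.

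Levels per length showed which -AS genes were most transcribed. The median tested -AS gene stood at 0.134 CPM per kb of gene body, averaged over all libraries, and the range was 0.00163 to 32.4. EPB41L4A-AS1 (chr5), a host of small nucleolar RNA, was highest at 32.4 CPM per kb, and SNORA13 overlaps 3.1% of it on the same strand. CCDC13-AS2 (13.6 CPM per kb) followed, although its partner CCDC13 was listed at 0 in all libraries. KMT2E-AS1 at 9.75, PTOV1-AS2 at 8.3, CLASP1-AS1 at 7.74, DLGAP1-AS1 at 7.35, NFYC-AS1 at 6.61 and ARHGEF17-AS1 at 6.5 CPM per kb came next, and RNU4ATAC overlaps 5.6% of CLASP1-AS1 on the same strand. By total counts, ZFPM2-AS1, a gene of 514436 bases, led in all 12 libraries with 0.0449% to 0.0783% of the counts. Partners were mostly transcribed more per length than their -AS genes. In nonirradiated Y1P libraries the 794 -AS genes had a median of 0.139 CPM per kb and their partners 0.629. The median ratio of -AS gene to partner was 0.308 with Y1P, 0.234 with S2P, where the -AS gene stood above its partner in 172 pairs, and 0.301 with S5P.

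Irradiation was first compared with no irradiation within each antibody, which asks how nascent transcription of these genes changed after DNA damage. With Y1P, 82 of 916 -AS genes rose and 2 fell at an edgeR quasi-likelihood adjusted p under 0.05 (Benjamini-Hochberg over all genes tested) and a log2 fold change (log2FC) beyond 0.1. These were 8.95% and 0.218% of the -AS genes, against a background of 4.38% higher and 4.28% lower among all 21246 genes. At an unadjusted p under 0.05, 263 -AS genes were higher and 26 lower, where all genes gave 14.5% and 14.3%. The median log2FC of the -AS genes was 0.35 (quartiles 0.06 and 0.68), and 720 of 916, or 78.6%, were above 0. The median was 0.02 over all genes and -0.04 over protein-coding genes. The 2 pairs of libraries gave -AS medians of 0.24 and 0.46.

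This count rested on the second pair of Y1P libraries and on the pairing by replicate number. Without Y1P replicate 2 (both its libraries), 0 of the 82 genes passed the test, against 58 without Y1P replicate 1, and without the replicate block 0 passed, although all 82 kept a positive log2FC in each fit. DESeq2 called 18 of them. The nonirradiated library of that pair had the lowest TMM factor of the series, 0.835, and the lowest -AS share of counts, and the part of this library in the result was not tested.

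The direction was shared with other lncRNA classes. With Y1P, divergent transcript (-DT) genes, which are named for starting head-to-head with a partner, had a median log2FC of 0.37 and 45 of 430 rose (10.5%) while 0 fell. Intergenic LINC genes had a median of 0.13 with 37 of 865 higher (4.28%), and other lncRNA genes one of 0.29 with 222 of 3516 higher (6.31%). Of 14661 protein-coding genes, 523 rose (3.57%) and 843 fell (5.75%). The 2 irradiated Y1P libraries lay above the 2 nonirradiated ones without overlap for 454 -AS genes, 49.6% of those tested, and for 26.4% of all genes.

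**Figure D1:**
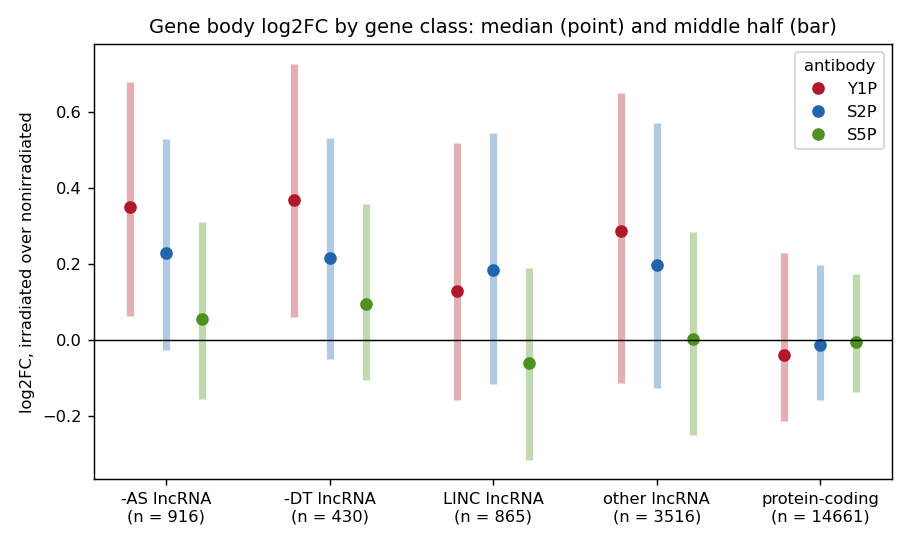
Median log2FC (irradiated over nonirradiated, vertical axis) of each gene class with Y1P, S2P and S5P, with bars from the lower to the upper quartile over genes. The -AS genes lie at 0.35, 0.23 and 0.06, and protein-coding genes at -0.04, -0.02 and -0.01.

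With S2P, 0 -AS genes rose and 1 fell (0.109%), against 0.0141% higher and 0.0847% lower among all genes. At an unadjusted p under 0.05, 107 were higher and 26 lower (8.31% and 9.39% of all genes), and DESeq2 also called 0 higher and 1 lower. The S2P count depended on the fit, since a replicate block shared by the antibodies called 9 higher and 4 lower, and leaving out S5P replicate 1 called 13 higher. With S5P, edgeR called 0 in either direction (background 0.00941% higher and 0.0424% lower), as did DESeq2, and 54 were higher and 24 lower at an unadjusted p under 0.05 (6.82% and 4.8% of all genes). The median -AS log2FC was 0.23 with S2P, where 667 of 916 were above 0, and 0.06 with S5P, where 518 were. The difference in irradiation effect between antibodies was tested itself. Neither edgeR nor DESeq2 called any -AS gene for S2P minus Y1P, S5P minus Y1P or S5P minus S2P, where edgeR called 0%, 0% and 0.00471% of all genes. At an unadjusted p under 0.05, the effect of S2P was above that of Y1P for 9 -AS genes and below it for 16 (1.75% and 1.36% of all genes). S5P was above Y1P for 10 and below it for 62 (3.88% and 3.51%), and above S2P for 8 and below it for 35 (1.22% and 3.11%). The lowest adjusted p was 0.666, for DICER1-AS1 in S5P minus Y1P, and no difference between antibodies was thus detectable for any -AS gene with 2 libraries a group.

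The 82 genes that rose with Y1P had log2FC from 0.32 to 2.09 with a median of 0.82, and adjusted p from 0.00528 to 0.0495 in edgeR. Their median length was 9066 bases. All 82 rose in both pairs of libraries, with medians of 0.59 and 1.00. In all 82 the irradiated Y1P libraries lay above the others without overlap, as they did for 49.6% of tested -AS genes. The same remark on a called gene below thus adds no support of its own. With S2P, 80 of the 82 had a log2FC above 0 (median 0.45) and 41 had an unadjusted p under 0.05. With S5P, 76 were above 0 (median 0.32) and 26 had an unadjusted p under 0.05. Above 0 were 72.8% of tested -AS genes with S2P and 56.6% with S5P, and 52.7% and 49.7% of all genes. At an unadjusted edgeR p under 0.05, 107 and 54 of the 916 -AS genes and 8.31% and 6.82% of all genes were higher. The 3 antibodies shared 1 estimate of the spread, so that these counts are not independent of the choice of the 82. Another gene of the same strand overlapped more than 50% of 3 of the 82, namely IRF1-AS1, ADIRF-AS1 and GPR84-AS1. PDLIM7-AS1 had the smallest adjusted p, 0.00528, and is named after its values were seen.

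The largest rises with a mean of at least 20 counts are given first. NAV2-AS6 (chr11:19710934-19712619, minus strand), which lies inside NAV2, a neuron navigator gene, measured 0.307 and 0.459 CPM without irradiation and 1.42 and 1.84 with it in the Y1P libraries. Both irradiated libraries were above both others. Its log2FC was 2.09 ± 0.464 (SE, n = 2 a group, edgeR adjusted p = 0.0252), against -0.24 with S2P and 0.34 with S5P. DICER1-AS1 (chr14:95157645-95181475, plus strand) is head-to-head with DICER1, the RNase that releases microRNAs from their precursors. It measured 1.84 and 0.689 CPM without and 3.42 and 3.39 with irradiation in Y1P, so that the irradiated pair was close together and above the scattered nonirradiated pair. The log2FC was 1.43 ± 0.313 (edgeR adjusted p = 0.0242). In S5P the same gene went from 2.45 and 2.4 to 1.79 and 1.74 CPM, a log2FC of -0.46 that did not pass. DICER1 itself stood at 64.7 and 66.5 CPM without and 57.7 and 54.3 CPM with irradiation in Y1P (log2FC -0.23, edgeR adjusted p = 0.11).

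HTT-AS lies inside HTT, the huntingtin gene, on chromosome 4. It measured 0.657 and 0.804 CPM without and 1.85 and 1.93 CPM with irradiation in Y1P, a log2FC of 1.37 ± 0.343 (edgeR adjusted p = 0.032). The groups did not overlap, and HTT stood at 254 and 256 CPM without and 230.0 and 199 with irradiation (log2FC -0.25, edgeR adjusted p = 0.0826). PRKAR1B-AS1, inside the gene of a regulatory subunit of protein kinase A, rose by a log2FC of 1.33 ± 0.381 (edgeR adjusted p = 0.0468). COA6-AS1 is head-to-head with COA6, which encodes a cytochrome c oxidase assembly factor. The promoter window of COA6-AS1 above holds the start of COA6 and the RefSeq start of COA6-AS1, but not its GENCODE start. COA6-AS1 measured 0.92 and 1.09 CPM without and 1.76 and 3.25 CPM with irradiation. The irradiated libraries were apart from each other but above both others. The log2FC was 1.27 ± 0.342 (edgeR adjusted p = 0.0401), against 0.26 for COA6 (adjusted p = 0.413). MIS18A-AS1, YWHAH-AS1 and RALGPS2-AS1, all head-to-head, rose by log2FC of 1.26, 1.26 and 1.25. Their partners encode a centromere licensing factor, a 14-3-3 protein and an exchange factor for Ral GTPases.

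**Figure D2:**
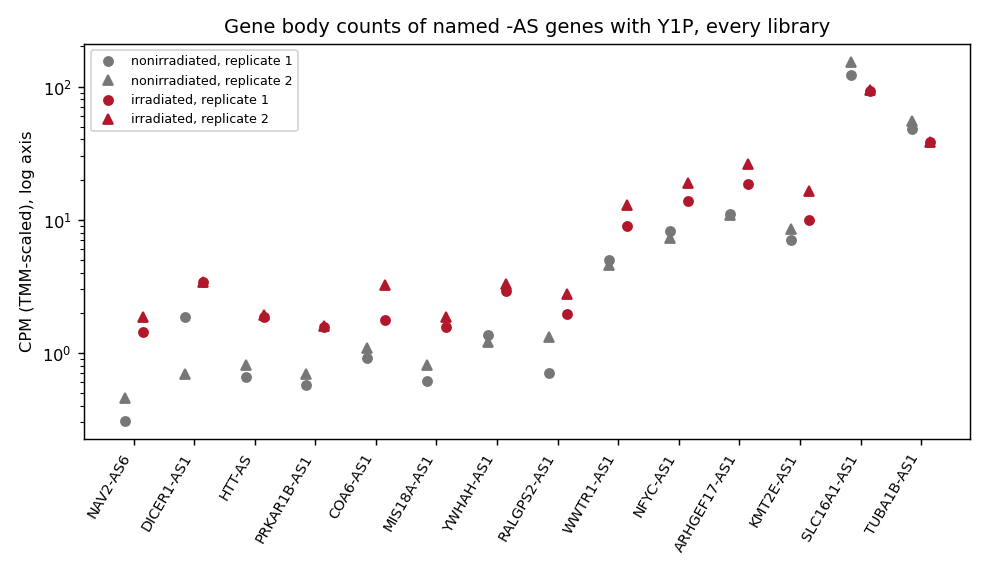
CPM (log axis) in each Y1P library of the largest called -AS genes and of genes named for other reasons, with symbols for the 2 nonirradiated and the 2 irradiated libraries. NAV2-AS6 went from 0.307 and 0.459 to 1.42 and 1.84 CPM, and SLC16A1-AS1 from 122 and 153 down to 92.3 and 94.7.

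Genes with more counts rose too. ARHGEF17-AS1 (chr11:73307235-73309361, minus strand), head-to-head with a guanine nucleotide exchange factor gene, measured 11.1 and 10.9 CPM without and 18.6 and 26.1 CPM with irradiation in Y1P. The nonirradiated libraries were nearly equal and both irradiated ones were higher. Its log2FC was 1.00 ± 0.157 (edgeR adjusted p = 0.00985). With S2P it went from 5.95 and 5.76 to 9.46 and 12.2 CPM (log2FC 0.87 ± 0.173, edgeR adjusted p = 0.106), and with S5P from 12.1 and 8.83 to 15.3 and 13.9 CPM (adjusted p = 0.314). The irradiated libraries were higher without overlap in all 3 antibodies, but only Y1P passed the test. ARHGEF17, whose start lies 1085 bases away, had 161 and 136 CPM without and 162 and 144 CPM with irradiation in Y1P (log2FC 0.04, adjusted p = 0.761).

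WWTR1-AS1 lies inside WWTR1, which encodes TAZ, a transcriptional coactivator of the Hippo pathway. It went from 4.95 and 4.59 to 8.93 and 12.8 CPM in Y1P (log2FC 1.16 ± 0.185, edgeR adjusted p = 0.0107) and from 2.95 and 3.16 to 5.25 and 7.37 in S2P (1.02, adjusted p = 0.105). The groups were apart in both antibodies, and WWTR1 had a log2FC of -0.14 in Y1P (adjusted p = 0.329). NFYC-AS1, a gene of 1695 bases head-to-head with the gene of an NF-Y subunit, went from 8.15 and 7.29 to 13.9 and 18.7 CPM in Y1P (1.06 ± 0.174, edgeR adjusted p = 0.0126). KMT2E-AS1 (chr7:105013277-105014321, minus strand), inside a gene of the trithorax family, went from 7.01 and 8.44 to 9.97 and 16.5 CPM (0.74 ± 0.173, adjusted p = 0.0275). Both genes were higher in both irradiated libraries. PTOV1-AS2, inside PTOV1, went from 14.9 and 17.1 to 21.4 and 22.6 CPM (0.47 ± 0.122, adjusted p = 0.0372), and DLGAP1-AS1 from 36.1 and 25.2 to 42.3 and 40.3 CPM (0.45, adjusted p = 0.0378). The 2 -AS genes of highest level per length did not pass. EPB41L4A-AS1 had 138 and 111 CPM without and 121 and 163 with irradiation in Y1P (0.18, edgeR adjusted p = 0.53), so that its groups overlapped, as did those of CCDC13-AS2.

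The genes that fell with Y1P were SLC16A1-AS1 and TUBA1B-AS1. SLC16A1-AS1 (chr1:112956415-113047055, plus strand) is head-to-head with SLC16A1, the gene of the lactate and pyruvate transporter MCT1. It went from 122 and 153 to 92.3 and 94.7 CPM in Y1P (log2FC -0.55 ± 0.0899, edgeR adjusted p = 0.0126) and from 100 and 112 to 68.2 and 80 CPM in S2P (-0.52 ± 0.0905, adjusted p = 0.0485). It was the only -AS gene called in S2P, and all irradiated libraries of both antibodies were below the nonirradiated ones. In S5P it went from 101 and 109 to 84.9 and 91.3 CPM, also without overlap, but did not pass (-0.25, edgeR adjusted p = 0.341). SLC16A1 had 98.4 and 94.2 CPM without and 80.6 and 95.9 with irradiation in Y1P (-0.13, adjusted p = 0.442). TUBA1B-AS1, which contains the alpha-tubulin gene TUBA1B, went from 47.6 and 55.3 to 38.2 and 38.5 CPM in Y1P (-0.42 ± 0.101, edgeR adjusted p = 0.0298), and TUBA1B from 47.7 and 43.8 to 49.8 and 57.4 (0.22, adjusted p = 0.211). Both falls with Y1P were lost without Y1P replicate 2 (log2FC -0.37 for SLC16A1-AS1 and -0.28 for TUBA1B-AS1) and without the replicate block, and the S2P call was lost without either S2P replicate and without the block.

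Among genes that did not pass in S2P or S5P, those with the smallest unadjusted p are given by value. With S2P these were WWTR1-AS1, ARHGEF17-AS1 and DM1-AS, which lies at the myotonic dystrophy locus and is overlapped over 42.7% of its length by a gene of the same strand. DM1-AS measured 3.38 and 3.26 CPM without and 5.7 and 6.3 CPM with irradiation (log2FC 0.84, edgeR adjusted p = 0.127). With S5P, H1-10-AS1 went from 4.79 and 4.31 to 7.09 and 7.73 CPM (0.71, edgeR adjusted p = 0.246). TRAM2-AS1 went from 4.84 and 3.92 to 6.87 and 7.06 CPM (0.68, edgeR adjusted p = 0.266) and UBE2R2-AS1 from 4.67 and 3.22 to 6.66 and 5.6 CPM (0.65, adjusted p = 0.251). The irradiated libraries of these genes lay above the others. On the lower side in S5P, NECTIN3-AS1 went from 460.0 and 308 to 387 and 247 CPM (-0.28, edgeR adjusted p = 0.294), with overlapping groups. CCDC90B-AS1 went from 13.2 and 13.0 to 10.3 and 10.3 CPM (-0.35, edgeR adjusted p = 0.363), without overlap.

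The Y1P calls were counted by how the -AS gene lies to its partner. Of the 457 head-to-head genes, 52 rose (11.4%), with a median log2FC of 0.42. Of the 180 genes inside the partner, 12 rose (6.67%, median 0.44), and of the 161 tail-to-tail genes, 7 rose (4.35%, median 0.16), close to the 4.38% of all genes. Of the 81 genes that contain the partner, 5 rose (6.17%, median 0.13), and of the 21 with no partner in the table, 5 rose (23.8%, median 0.66). Of the 12 genes apart from the partner 1 rose, and of the 4 on its strand 0 did. These groups also differ in length, which was therefore read beside them.

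Short genes rose more often than long ones, in -AS and protein-coding genes alike. Of the 317 tested -AS genes under 10 kb, 42 rose and 0 fell with Y1P (13.2%, median log2FC 0.61), against 230 of 2279 protein-coding genes of that length (10.1%, median 0.27). From 10 to 100 kb, 32 of 432 -AS genes rose and 2 fell (7.41%, median 0.30), against 270 higher and 467 lower of 8864 protein-coding genes (3.05% higher, median -0.03). Above 100 kb, 8 of 167 -AS genes rose and 0 fell (4.79%, median 0.08), while 23 of 3518 protein-coding genes rose (0.654%) and 354 fell (10.1%, median -0.17). At each length the -AS median was thus above the protein-coding one, and both declined with length. Head-to-head -AS genes rose in 29 of 179 (16.2%) under 10 kb, 21 (10.2%) from 10 to 100 kb and 2 of 72 (2.78%) above. With a trend on gene length removed within each library in the fit, 25 of the 82 genes still passed in Y1P and the -AS median was 0.23.

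The other antibodies had the same order by length. The -AS medians were 0.37, 0.18 and 0.07 in S2P and 0.23, 0.03 and -0.11 in S5P, from the shortest to the longest class. The protein-coding medians in S2P were 0.206, -0.015 and -0.117, each below the -AS median of like length. In S5P the protein-coding medians were 0.20, 0.01 and -0.11, close to the -AS medians of like length.

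**Figure D3:**
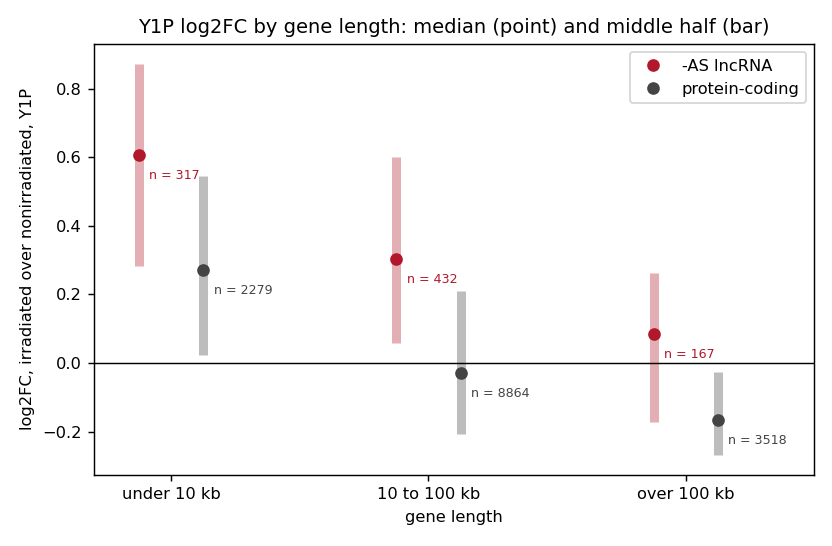
Median Y1P log2FC (vertical axis) of -AS and protein-coding genes in 3 classes of gene length, with bars from the lower to the upper quartile over genes and the number tested beside each point. The -AS medians fall from 0.61 to 0.08 and the protein-coding ones from 0.27 to -0.17.

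Calls were also counted by level, which goes with length, as 85 of the 113 -AS genes at 1 CPM per kb or more were under 10 kb. Of the 402 -AS genes under 0.1 CPM per kb, 16 rose with Y1P (3.98%, median log2FC 0.26), of the 401 from 0.1 to 1 CPM per kb, 39 rose (9.73%, median 0.39), and of the 113 in the top class, 27 rose (23.9%, median 0.38). In protein-coding genes of the same classes the shares higher were 1.48%, 3.56% and 5.03% and the medians 0.08, -0.04 and -0.08. Among genes under 10 kb at 1 CPM per kb or more, 25 of 85 -AS genes rose (29.4%), against 166 of 1143 protein-coding genes (14.5%).

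Each -AS gene was next set against its own partner. With Y1P the 794 -AS genes had a median log2FC of 0.36 and their partners one of -0.05, and the -AS gene had the higher value in 603 pairs (75.9%). It did so in 561 pairs (70.7%) with S2P and 477 (60.1%) with S5P. Across the 794 pairs the 2 fold changes were nearly unrelated in Y1P (Pearson's r 0.04, Spearman's coefficient 0.004, across genes that share libraries and with 775 distinct partners). In the 421 head-to-head pairs r was 0.03 and the -AS gene had the higher value in 333 (79.1%), with medians of 0.44 and -0.04. In the 145 tail-to-tail pairs r was 0.21 and the -AS gene was higher in 99 (68.3%).

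**Figure D4:**
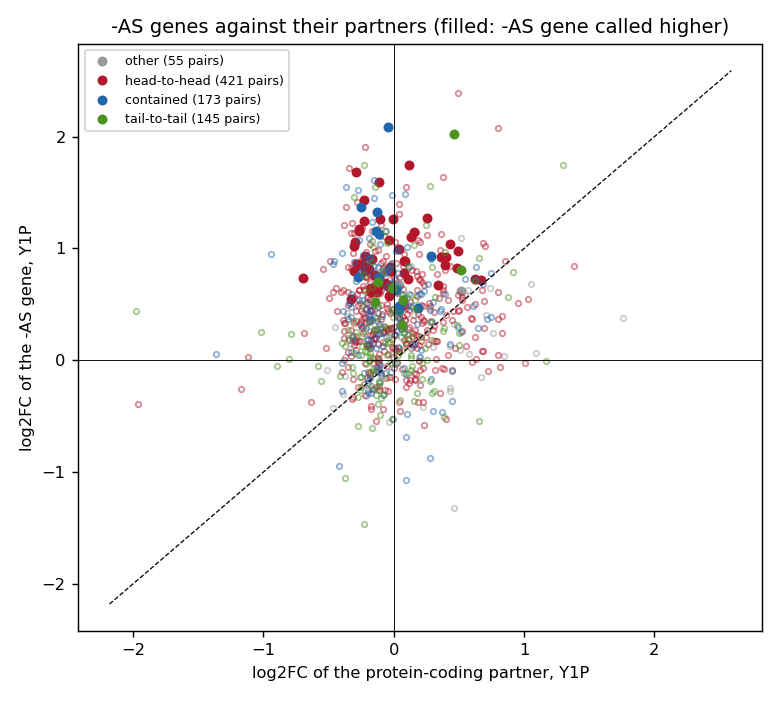
Y1P log2FC of each -AS gene (vertical axis) against that of its protein-coding partner (horizontal axis) for 794 pairs, colored by how the pair lies, with filled points where the -AS gene was called higher and a dashed diagonal. Points lie above the diagonal in 603 pairs, and the 2 values show little relation (Pearson's r 0.04).

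Of the 82 genes that rose with Y1P, 74 had a tested partner. The partner was not called in 68 of them, rose in 4 and fell in 2. These shares, 5.41% higher and 2.7% lower, stand beside 2.9% higher (23) and 5.04% lower (40) among the partners of all 794 pairs, and the difference was not tested. The pairs that rose together were CEBPB-AS1, PRR7-AS1 and SLC39A13-AS1, all head-to-head, and ZNF232-AS1, which is tail-to-tail. PRR7-AS1 went from 22.7 and 18.4 to 31.0 and 37.1 CPM (log2FC 0.72, edgeR adjusted p = 0.0198), and PRR7, a membrane adaptor gene, from 18.1 and 18.0 to 24 and 32.2 CPM (0.62, adjusted p = 0.0238). In both genes both irradiated libraries were above the others. SLC39A13-AS1 went from 5.04 and 6.26 to 8.69 and 13.0 CPM (0.92, edgeR adjusted p = 0.0198), and the zinc transporter gene SLC39A13 from 14.2 and 15.2 to 18.7 and 20.1 CPM (0.40, adjusted p = 0.0485). CEBPB-AS1 had a log2FC of 0.72 (edgeR adjusted p = 0.0456) and CEBPB, a transcription factor of the bZIP family, one of 0.67 (adjusted p = 0.0487). ZNF232-AS1 had 0.80 (edgeR adjusted p = 0.0482) and ZNF232, a zinc finger gene, 0.52 (adjusted p = 0.0428).

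The partners that fell were NFYC and UBE2R2. NFYC went from 180.0 and 187 to 156 and 143 CPM (log2FC -0.30 ± 0.0846, edgeR adjusted p = 0.0468), while NFYC-AS1 rose as given above. UBE2R2, which encodes a ubiquitin-conjugating enzyme, went from 277 and 469 to 223 and 222 CPM (-0.70 ± 0.136, edgeR adjusted p = 0.0202). Its nonirradiated libraries were far apart but both above the irradiated ones. UBE2R2-AS1 went from 5.08 and 5.92 to 8.26 and 10.1 CPM (0.73 ± 0.165, edgeR adjusted p = 0.0257). For both pairs the -AS gene and its partner thus changed in opposite directions in the same Y1P libraries.

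Lists of -AS genes by known function were read against the 8.95% of all tested -AS genes that rose with Y1P. Of 14 antisense genes of the HOX clusters, which hold the homeobox genes of body axis patterning, 9 were tested, all 9 had a Y1P log2FC above 0 (median 0.89, against 0.35 for all -AS genes) and 2 rose (22.2%). These 9 were short, with a median length of 4792 bases. All -AS genes under 10 kb had a Y1P median of 0.61, with 89.0% above 0 and 13.2% called higher. HOXA-AS2 went from 6.14 and 4.59 to 8.31 and 14.4 CPM (1.02 ± 0.272, edgeR adjusted p = 0.0389), and HOXB-AS3 from 1.49 and 1.61 to 2.75 and 3.53 CPM (1.01 ± 0.289, adjusted p = 0.0472). Both genes were higher in both irradiated libraries. HOXD-AS2 (0.89, edgeR adjusted p = 0.0642) and HOXA11-AS (0.61, adjusted p = 0.0784) did not pass. The list's median was 0.75 with S2P and 0.23 with S5P, with 8 of 9 above 0 in each, and these genes lie in 4 clusters, where neighbors are not independent.

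Of 32 listed -AS genes whose partner acts in DNA repair, replication, the cell cycle or the p53 pathway, 14 were tested, with a Y1P median of 0.10. TMPO-AS1, head-to-head with the gene of the lamina-associated protein LAP2, rose from 4.08 and 3.22 to 5.51 and 7.96 CPM (0.85 ± 0.218, edgeR adjusted p = 0.0351). It was the only gene of the list called (7.14%), and TMPO had a log2FC of -0.24 (adjusted p = 0.0913). KIF9-AS1 (-0.36, edgeR adjusted p = 0.0662), CCND2-AS1 (0.54, adjusted p = 0.0782) and MCM8-AS1 (0.97, adjusted p = 0.304) did not pass.

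Of 34 listed -AS genes of developmental or mesenchymal transcription factors, 21 were tested, with a Y1P median of 0.27. SMAD5-AS1 (1.91, edgeR adjusted p = 0.0637), WT1-AS (0.51, adjusted p = 0.071) and HIF1A-AS1 (0.89, adjusted p = 0.078) did not pass. Of 35 further antisense genes with published study, 25 were tested (median 0.30), of which 4% rose and 4% fell. FGD5-AS1 rose from 11.3 and 10.5 to 14.2 and 17.7 CPM (0.54 ± 0.157, edgeR adjusted p = 0.0485), SLC16A1-AS1 fell as above, and TRAF3IP2-AS1 (-0.27, adjusted p = 0.0698) and ASH1L-AS1 (0.61, adjusted p = 0.0788) did not pass.

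The antibodies were then compared in nonirradiated cells, which asks where each form of the polymerase lies without damage. S2P was lower than Y1P at 28 -AS genes and higher at 0, at an edgeR adjusted p under 0.05 and a log2 difference beyond 1. The 28 were 3.06% of the -AS genes, against 1.02% lower and 0.0659% higher among all genes. At an unadjusted p under 0.05, 239 -AS genes were lower and 6 higher (12% and 12.5% of all genes), and DESeq2 called 14 lower and 0 higher. The median log2 difference was -0.34 over -AS genes, with 737 of 916 below 0, -0.36 over -DT genes, -0.04 over all genes and 0.02 over protein-coding genes, of which 60 of 14661 were lower (0.409%). The Y1P nonirradiated libraries enter this comparison and the irradiation comparison alike. Leaving out S2P replicate 1 or 2 kept 3 or 7 of the 28 calls, leaving out Y1P replicate 1 or 2 kept 12 or 5, and the fit with no replicate block kept 0, with all 28 below 0 each time.

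**Figure D5:**
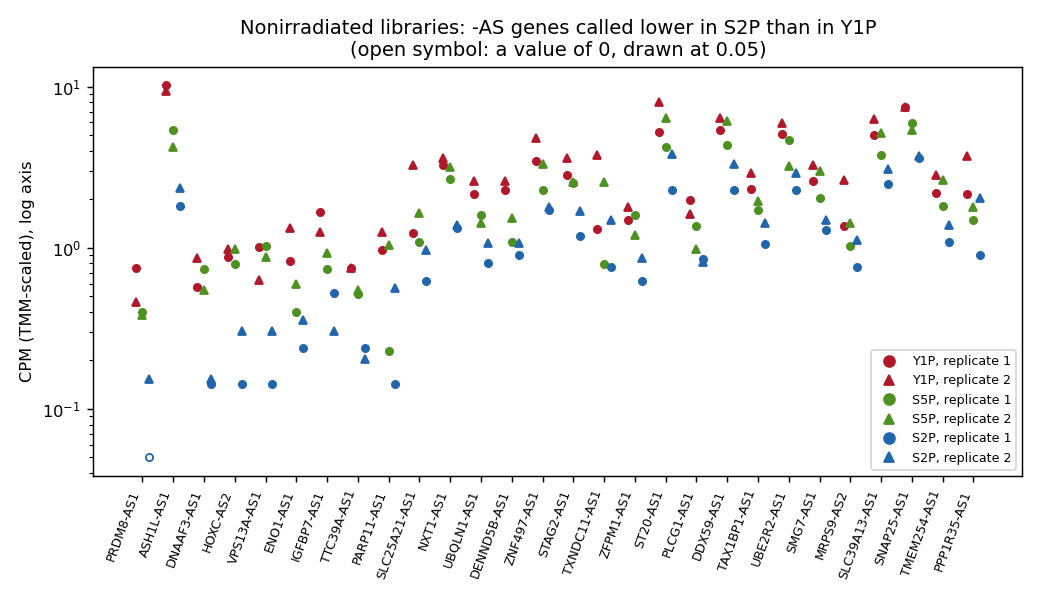
CPM (log axis) in each nonirradiated Y1P, S5P and S2P library of the 28 -AS genes called lower in S2P than in Y1P, with an open symbol for a value of 0. The S2P libraries lie below the Y1P libraries without overlap in 27 of the 28 genes, which were chosen on these libraries.

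Of the 28 genes, 23 were head-to-head, which is 5.03% of the 457 head-to-head genes tested, and 0 of the 161 tail-to-tail genes were among them. Their log2 differences ran from -2.96 to -1.01 with a median of -1.19, and the 2 S2P libraries lay below the 2 Y1P ones without overlap in 27, as they did for 44% of all tested -AS genes and 21.8% of all genes in these libraries, which chose the 28. The contrast did not compare the irradiated libraries, but they entered the fit that chose the 28. In them S2P was below Y1P for all 28, without overlap in 26 and with a median log2 ratio of -1.01. Over all tested -AS genes S2P was below Y1P in the irradiated libraries in 85.3%, without overlap in 61.9%, and over all genes in 54.9% and 31.2%. The 25 tested partners of the 28 had a median log2 difference of 0.07, and 0 were called in edgeR.

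ASH1L-AS1, head-to-head with a histone methyltransferase gene and overlapped over 37% by a gene of the same strand, measured 10.2 and 9.42 CPM with Y1P, 1.81 and 2.34 with S2P and 5.35 and 4.2 with S5P. S5P thus lay between the others with no overlap. The log2 difference of S2P from Y1P was -2.26 ± 0.275 (SE, edgeR adjusted p = 0.000289), against 0.07 for ASH1L (adjusted p = 0.713). IGFBP7-AS1, named after a gene of a secreted binding protein, measured 1.67 and 1.26 CPM with Y1P and 0.523 and 0.306 with S2P (-1.81 ± 0.389, edgeR adjusted p = 0.00815). NXT1-AS1, head-to-head with the gene of an mRNA export cofactor and shown by its promoter above, measured 3.24 and 3.62 CPM with Y1P, 1.33 and 1.38 with S2P and 2.68 and 3.16 with S5P. Its Y1P and S2P libraries were well apart (-1.33 ± 0.247, edgeR adjusted p = 0.00353), and NXT1 had a difference of 0.22 (adjusted p = 0.542). SLC25A21-AS1 measured 1.23 and 3.27 CPM with Y1P and 0.619 and 0.968 with S2P (-1.44 ± 0.378, edgeR adjusted p = 0.0224), so that its Y1P libraries were far apart.

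S5P was not called different from Y1P or from S2P at any -AS gene, by edgeR or by DESeq2, where edgeR called 0% of all genes in either comparison. At an unadjusted p under 0.05, S5P was below Y1P at 42 -AS genes and above it at 15 (3.91% and 2.78% of all genes), and above S2P at 178 and below it at 6 (8.64% and 9.57%). ZNF497-AS1, ST20-AS1, DDX59-AS1, UBE2R2-AS1 and SLC39A13-AS1 were both lower with S2P than with Y1P in nonirradiated cells and higher after irradiation with Y1P, in comparisons that share the nonirradiated Y1P libraries. Promoter windows of the 28 genes held GGGCGG in 56.0% and CCAAT in 16.0% of 25 windows, and those of the 82 genes in 60.3% and 30.8% of 78 windows, against 52.8% and 30.4% for all tested -AS genes.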

How the data were processed

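The authors trimmed, aligned (STAR, hg38) and deduplicated the mNET-seq reads, removed internal priming, and deposited read counts per gene body, made with featureCounts by strand without multimapping reads. Reads overlapping gene bodies were excluded too, by their methods. The processing notes name cutadapt 1.8.3, and the authors' annotation release is not given in the sources used here. From the deposited counts, 1022 repeat entries without counts were left out, the 24 runs were summed to 12 libraries, and IDs were named through GENCODE release 44 (120 unmatched, with 0.0116% of the counts). edgeR 4.0.16 in R 4.3.3 was fitted with TMM factors and quasi-likelihood tests. The irradiation fit had a replicate block within each antibody, as the replicate number was taken for the technical replicate term of the authors' methods. Deviations of same-numbered libraries correlated at 0.168 within Y1P, 0.282 within S2P and 0.246 within S5P. Across antibodies the correlations were 0.173 to 0.392, all above that of Y1P, and a shared block was an alternative. That fit had 3 residual degrees of freedom and 11 borrowed across genes. The antibody contrasts were taken from a fit of all 12 libraries with the replicate number as 1 block shared by the antibodies. The edgeR and DESeq2 fits were tested on simulated counts with known changes, and the other steps were not. The members and lists were chosen with earlier results of these data known. Named genes were the 8 largest called changes per direction with at least 20 mean counts, the 3 smallest p where an antibody called none, the 4 largest between antibodies, the 8 highest levels per kb and up to 4 per list, with partners. Promoter sequences came from RefSeq. Alternatives changed scaling, filter, test, block, runs, length trend and the replicates included. The result of 1 listed gene is not reported here.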

Additional observations from a re-analysis of the deposited data

How the results depend on the processing

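Leaving out both libraries of 1 replicate of 1 antibody, with the lone library of a group assumed to vary like the other groups, gave 0 to 108 -AS genes higher with Y1P (head-to-head 0 to 65), 0 to 12 lower with Y1P, 0 to 4 lower and 0 to 13 higher with S2P, and 0 to 1 lower with S5P. The lowest Y1P value came without Y1P replicate 2. Effects that differed between antibodies numbered 0 to 1 for S5P minus Y1P and 0 to 1 for S5P minus S2P. Without irradiation, S2P was lower than Y1P at 4 to 24 and higher at 0 to 2, and S5P was lower than Y1P at 0 to 1, higher than Y1P at 0 to 2 and higher than S2P at 0 to 3. These fits of the antibody contrasts were chosen after seeing the data, as the fit without a replicate number of all 3 antibodies has no residual degrees of freedom and was not run.

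Without the replicate block, that is without pairing the libraries, 0 -AS genes were higher and 0 lower with Y1P (head-to-head 0 higher), 0 lower with S2P, and 0 lower in S2P than in Y1P. A block shared by the antibodies gave 140 higher (head-to-head 86) and 11 lower with Y1P, 9 higher and 4 lower with S2P, and 1 lower with S5P. Counting runs as replicates, which differ by little more than sampling noise between batches, gave 291 higher (head-to-head 174) and 32 lower with Y1P. It gave 94 and 32 with S2P and 45 and 26 with S5P. Effects that differed then numbered 2, 36 and 3 for S2P minus Y1P, S5P minus Y1P and S5P minus S2P. No filter on low counts gave 138 higher (head-to-head 86) and 5 lower with Y1P, 18 and 6 with S2P and 2 and 1 with S5P, 3 and 2 differing effects for S5P minus Y1P and S5P minus S2P, 2 lower and 1 higher in S5P than in Y1P, and 9 higher in S5P than in S2P. DESeq2 gave 18 higher with Y1P (head-to-head 13) and 14 lower in S2P than in Y1P. With the length trend removed there were 25 higher (head-to-head 16) and 4 lower with Y1P, 0 lower with S2P, and an S5P median of 0.018.

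Library totals alone moved the median of all genes to 0.213 with Y1P and 0.194 with S2P, and the -AS medians to 0.543, 0.401 and 0.101 with Y1P, S2P and S5P, with 1 lower with Y1P, 0 lower with S2P and 17 lower in S2P than in Y1P. Relative log expression factors gave 7 lower with Y1P and 1 higher in S5P than in S2P, upper quartile factors 0 lower with S2P and 1 higher in S5P than in S2P, and the stricter filter 0 lower with S2P. All 82 Y1P genes and all 28 antibody genes kept their direction in every setting that tested them. Among the named genes and partners, 568 of 730 values kept direction and side of the threshold, 63 passed it newly, 86 lost it and 13 changed sign. All 13 were partners not called with Y1P. NAV2 had log2FC of 0.0196 with upper quartile factors, 0.1514 with totals, 0.1046 without the length trend, and from -0.0697 to 0.0069 leaving out a Y1P replicate. PRKAR1B had 0.0675 with totals and -0.2695 to 0.0305 without a Y1P replicate, and YWHAH 0.0933 with totals. MIS18A had 0.0566 with upper quartile factors, 0.1908 with totals, 0.0016 without filter, 0.0336 with the stricter filter, 0.026 with runs and -0.0517 to 0.0591 without a Y1P replicate. The causes were not tested.

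Genes overlapped on their own strand remain uncertain, and the part of depth in the calls was not separated from that of gene length.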
